A study of Homo sapiens with 9 samples.

Results

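Very broad accessible domains are stretches of open chromatin that a peak caller reports as 1 wide interval instead of several short ones. Here they were chosen from the 2 control lists of an ATAC-seq series, in which the Tn5 transposase cuts and tags open chromatin. Peaks of 2000 bp or more in 1 shCtrl list were kept where they overlapped, by at least 1 bp, a peak of that width in the other shCtrl list, and the overlapping peaks were merged. The first shCtrl list held 119 such peaks and the second 141. Merging gave 54 broad domains, of 65657 regions with a peak in both shCtrl lists and 118719 regions with a peak in any of the 9 lists. The domains covered 123374 bp in all on 16 chromosomes, and their widths ran from 2018 to 2830 bp with a median of 2241.5 bp.

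All 9 libraries came from MDA-MB-231, a human triple-negative breast cancer cell line, grown in DMEM with fetal bovine serum. The shCtrl, shEZH2 and shE2F1 groups had 2 libraries each, and shSUZ12 had 1; these cells carried a lentiviral short hairpin RNA after 24 h of transduction and 72 h of selection with puromycin at 2 μg/ml. shEZH2 depletes the methyltransferase of Polycomb repressive complex 2 (PRC2), shSUZ12 another core subunit of that complex, and shE2F1 a transcription factor of cell cycle genes. The remaining pair, DMSO and GSK126, had 1 library each, carried no hairpin, and were given the solvent or an inhibitor of EZH2 methyltransferase activity for 72 h; the DMSO sample is titled DMSO while its treatment label reads WT. Each knockdown is represented by 1 hairpin in 1 cell line, no label says that replicates came from separate cultures, and the puromycin-selected and drug-treated cells differ in handling. The comparisons ask whether broad open domains become shorter or break up when EZH2, E2F1 or SUZ12 is depleted or EZH2 is inhibited, and at which genes.

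Open promoters lack nucleosomes over the transcription start site (TSS), and ATAC-seq signal there is usually 1 sharp peak. Broad open stretches are known from promoters rich in CpG dinucleotides and from pairs of genes that start close together on opposite strands. PRC2 marks the promoters of silent genes with H3K27 methylation, and E2F factors bind promoters of genes for DNA replication and mitosis.

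Depth was recovered from the deposited fold enrichments and p-values as the most frequent local background, relative to the first shCtrl library. It was 1.16 in the second shCtrl library, 1.09 and 0.788 in shEZH2, 0.838 and 1.22 in shE2F1, 1.18 in shSUZ12, 1.00 in DMSO and 0.816 in GSK126. The lists held from 58626 to 85812 peaks. TSSs of 24 of 30 mesenchymal and basal-like genes lay in a peak of both shCtrl lists, against 1 of 15 genes of lineages foreign to breast, NKX2-1, the lung and thyroid homeobox gene. KRT5, KRT14, KRT17, TWIST1 and CDH2 had a peak there in neither list, and PLAU only in the first. The count was 29 of 30 for cell cycle genes and 19 of 20 for housekeeping genes. It therefore does not check a mesenchymal or basal-like identity.

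Most broad domains lay at promoters. A TSS of a protein-coding gene lay in 44 of the 54 (81.5%, 95% Wilson interval 69.2 to 89.6), and 12 held 2 such TSSs, in 6 cases on opposite strands, as between MBOAT7, a lysophospholipid acyltransferase, and TSEN34, a subunit of the tRNA splicing endonuclease. The domains took in 56 of the 20033 TSSs. One domain lay in the body of PITX3, a homeobox gene, and 9 lay outside protein-coding genes. Among these 9, the distance to the nearest coding TSS was 62 bp at NRP1, a semaphorin and VEGF receptor, and 552 bp at SOCS2, a feedback inhibitor of cytokine signalling. KLF9, a zinc finger factor, was 4150 bp away, GNAI2, an inhibitory G protein subunit, 7919 bp, and HEXIM2, an inhibitor of transcription elongation, 8895 bp. The others lay farther out, 26205 bp from MYEOV, 27177 bp from ITGA3, 53540 bp from VCPKMT and 55057 bp from RREB1; these domains are named by that gene for identification only.

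Of the domain bp, 8.15% were coding sequence, 11.2% UTR, 30.6% intron of a coding gene, 20.9% noncoding gene and 29.2% intergenic. Noncoding transcripts started in 32 of the 54, among them SOCS2-AS1, DSP-AS1 and ITGB8-AS1. Median GC content was 66.0%, and the range was 51.4% to 71.5%. At the strongest peak of each domain in the first shCtrl list, median GC content was 66.1%, close to the 65.0% of 10753 other peaks with a coding TSS and above the 51.4% of all 78543 other peaks. The ratio of observed to expected CpG was 0.762, 0.774 and 0.253 in these 3 sets.

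Short sequences of 3 kinds were counted within 150 bp of the summit of that strongest peak, on both strands. AP-1 letters (TGACTCA, whose reverse complement is TGAGTCA) occurred in 7 of the 54 domains (13.0%, 95% Wilson interval 6.42 to 24.4), in 4.04% of other peaks with a coding TSS and in 28.8% of all other peaks. E2F letters (TTTCCCGC, TTTGGCGC, TTTCGCGC or TTTGCCGC) occurred in 4 domains (7.41%, 2.92 to 17.6), in 5.11% of other TSS peaks and in 1.57% of all other peaks. CCAAT, the letters bound by NF-Y, occurred in 15 domains (27.8%, 17.6 to 40.9), beside 35.7% and 31.6%. The 4 domains with E2F letters were at AIDA and BROX, ZFP91, NFE2L2 and CCNO. The 7 with AP-1 letters were at TAGLN2, ZFP91, CTTN and KLF9 and in the domains nearest to MYEOV, VCPKMT and RREB1, so 4 of the 7 lay outside coding genes. A match of letters is a description and not a binding site.

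The stretches around the AP-1 letters of 4 domains are shown because TAGLN2 is the widest domain, RREB1 and VCPKMT are among those named for their gaps below shCtrl, and CTTN held 2 matches. They are GRCh38 plus strand, 5′ to 3′, with the AP-1 letters in capitals.
TAGLN2, intron, chr1:159924608-159924674: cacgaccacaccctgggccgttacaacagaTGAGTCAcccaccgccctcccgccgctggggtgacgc
CTTN, intron, chr11:70399948-70400014: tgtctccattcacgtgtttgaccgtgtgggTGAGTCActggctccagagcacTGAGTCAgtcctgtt
VCPKMT nearest, in LINC01588 outside its canonical exons, chr14:50061182-50061248: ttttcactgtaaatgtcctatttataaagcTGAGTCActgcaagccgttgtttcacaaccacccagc
RREB1 nearest, intergenic, chr6:7050964-7051030: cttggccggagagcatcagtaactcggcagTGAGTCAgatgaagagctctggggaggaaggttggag
The letters lay 59 bp from the summit at TAGLN2, 68 bp at CTTN, 25 bp at VCPKMT and 60 bp at RREB1.

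A broad domain was rare at the genes of known programmes, as it was at coding TSSs in general. Counts of 0 or 1 per list are too small to set a programme apart from them. Beside 0.280% of all coding TSSs in a domain, the counts were 1 of 13 AP-1 genes (ATF3, a stress-induced factor), 1 of 30 cell cycle genes (CDKN1A, the inhibitor p21), 1 of 20 housekeeping genes (GAPDH, the glycolytic enzyme), 0 of 11 PRC2 genes, 0 of 14 YAP and TEAD targets, 0 of 20 stress and NF-kB response genes, 0 of 30 mesenchymal genes and 0 of 15 genes of foreign lineages. None of the genes the study followed (CCNB1, RRM2, CDC20, PLK1, E2F5, EZH2, E2F1 and SUZ12) had its TSS in a domain. The EZH2 promoter peak was 1802 and 1746 bp wide in the shCtrl lists, under the threshold, and the CCNB1 peak was 995 and 949 bp wide. Histone genes lay in 3 domains, H2BC18 with H3C13, H2AC19 with H3C15, and H1-4 with H2BC5. Since reads were aligned with up to 4 positions each and these genes have near-identical copies, the values of the histone domains are uncertain.

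The domains were wide but not high among peaks. The strongest peak of a domain was ranked within its own list by fold enrichment over local background. The median percentile over the 54 domains was 43.4 and 49.1 in shCtrl, 47.7 and 46.3 in shEZH2, 44.4 and 52.0 in shE2F1, 52.2 in DMSO, 46.9 in GSK126 and 51.9 in shSUZ12. The domains thus sat near the middle of each deposited list by height. Within the 58626 most significant peaks of each list they ranked lower, at a median of 25.6 for the mean of the 2 shCtrl libraries, against 45.0 in the lists as deposited. By −log10 p, the medians ranged from 84.6 to 90.8 over the 9 lists. In the first shCtrl list, median fold enrichment was 6.42 for the domains, 10.0 for other peaks with a coding TSS and 6.94 for all other peaks. GAPDH had the lowest percentile of any domain and list, 6.72 in the first shCtrl library, and SAP30L, which encodes a deacetylase complex subunit, reached 86.4 in shSUZ12.

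The rule has a sharp edge. Just inside it were TOB1, an antiproliferative gene, with peaks of 2004 and 2105 bp in the 2 shCtrl lists, and GAPDH, with 2005 and 2018 bp. Just outside was a region of chromosome 14 from 53151673 to 53153721, with 2049 bp in the second list and 1999 bp in the first. Another 152 wide peaks were wide in 1 shCtrl list alone, and at 29 of them the other list's widest peak was within 100 bp of the threshold. Of the 54 domains, 24 had a peak within 100 bp above it.

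The shCtrl lists chose the domains, so their own coverage was high by construction. Peaks covered 96.8% and 98.0% of domain bp in the shCtrl libraries. The lists that took no part in the choice covered 90.8% in DMSO, 86.3% in GSK126, 90.5% in shSUZ12, 85.1% and 77.1% in shEZH2, and 76.6% and 89.2% in shE2F1. DMSO, which carries no knockdown, was therefore also below shCtrl, and 39 domains (72.2%) had fewer covered bp there than in either shCtrl library, beside 51.7% of all regions with a peak in both shCtrl lists, while 3 had more, beside 7.34%. No domain was without a peak in any of the 9 lists.

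**Figure D1:**
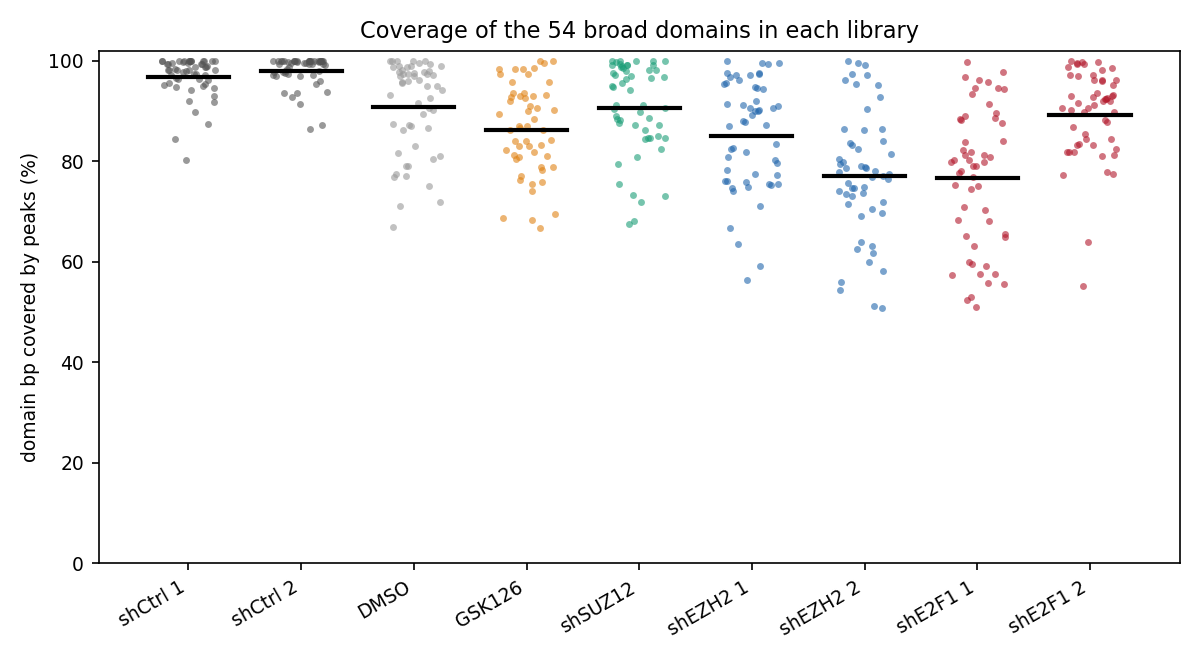
Percent of each domain's bp covered by peaks (vertical axis) in the 9 libraries (horizontal axis); each point is 1 of the 54 domains and the black line is the percent over all domain bp. The lines sit at 96.8% and 98.0% in the shCtrl libraries, which chose the domains, and lowest at 77.1% and 76.6% in the second shEZH2 and first shE2F1 libraries.

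Between the knockdowns the spread within a group was larger than the difference. Mean coverage was 81.1% ± 5.61 in shEZH2 and 82.9% ± 8.85 in shE2F1 (SD, n = 2 each), a difference of −1.81 percentage points. The exact permutation test, two-sided, gave p = 1.00, and 2 libraries against 2 cannot go below p = 0.33. The libraries with the lowest coverage, the second of shEZH2 and the first of shE2F1, were also those with the lowest relative depth of the knockdown libraries, 0.788 and 0.838, and the part of depth in the result was not tested.

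By the cut at 2000 bp, most domains were 1 narrower peak or in pieces after EZH2 or E2F1 knockdown and with GSK126. Most remained 1 wide peak in DMSO and shSUZ12. A domain was made of 1 peak of 2000 bp or more at 51 and 53 of the 54 in the shCtrl libraries, at 35 in DMSO, 33 in shSUZ12 and 20 in GSK126. In shEZH2 this held at 17 and 10 domains, and in shE2F1 at 10 and 22. Peaks numbered 2 or 3 at 27 and 31 domains in shEZH2, 34 and 25 in shE2F1, 24 in GSK126, 16 in shSUZ12, 12 in DMSO, and 3 and 1 in shCtrl. A wide peak was 1 of the pieces at each of the split domains of shCtrl, as the rule requires, and at 1 each in DMSO, shSUZ12 and the second shE2F1 library. A single peak under 2000 bp was left at the others, between 5 and 13 domains in the lists outside shCtrl. The cut is sharp, so a nearly whole domain can count as narrower and a shortened one as wide. NFE2L2 had 1 peak of 1999 bp in the first shEZH2 library, with 94.7% of the domain covered. PDZD7/SFXN3 counted as wide in the first shE2F1 library with 79.8% covered.

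**Figure D2:**
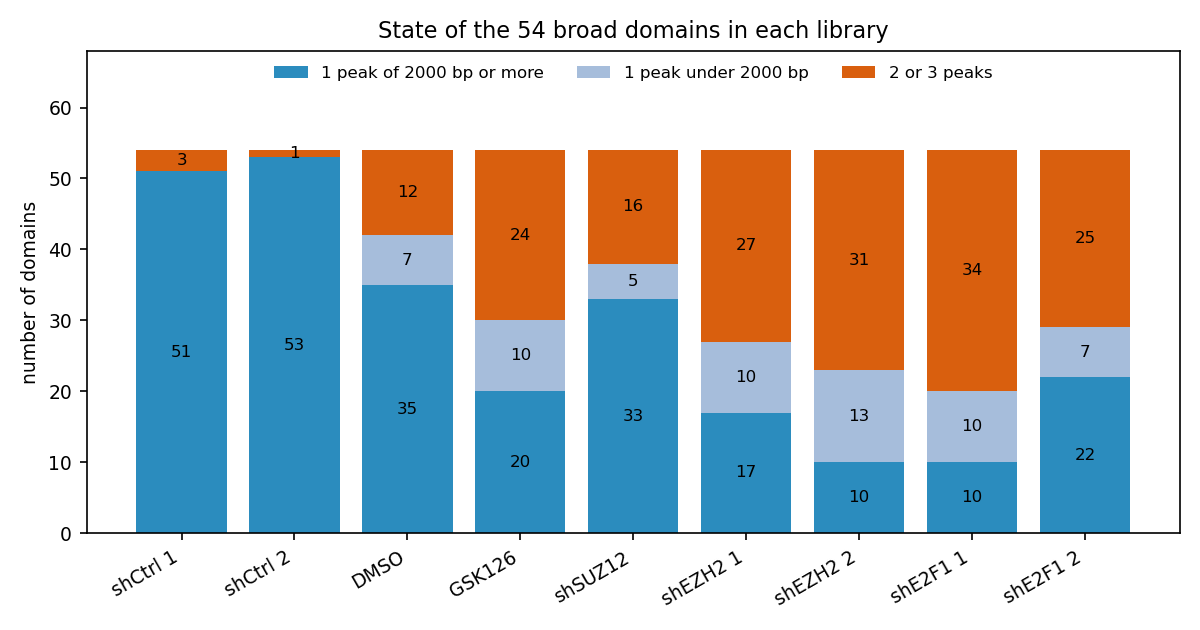
Number of the 54 domains (vertical axis, stacked bars from 0) that held 1 peak of 2000 bp or more, 1 narrower peak, or 2 or 3 peaks in each library. The wide state was most frequent in shCtrl, at 51 and 53, and least frequent at 10 in the second shEZH2 and first shE2F1 libraries.

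At least 2 peaks in each shEZH2 library were found at 18 of the 54 domains (33.3%), where the same held for 1.8% of all regions with a peak in both shCtrl lists. In both shE2F1 libraries the count was also 18 (33.3%), beside 1.59% of regions. Broad regions have more room to break, so the shares over all regions, most of them narrow, are no measure for this width. Among 280 regions of 2000 bp or more between the outer edges of their shCtrl peaks, 38.2% and 29.3% already held several peaks in shCtrl. In the same 280 regions the share was 49.6% and 61.1% in shEZH2 and 66.1% and 48.9% in shE2F1. It was 39.6% in DMSO, 47.1% in GSK126 and 40.7% in shSUZ12. Genes at the shEZH2 splits included ACTN1, LHX4, COMTD1, N4BP2 and TPBG. Those at the shE2F1 splits included ACTN1, LHX4, ATF3, TMEM132A and GAPDH. Both comparisons use the same shCtrl libraries, so no overlap between them is given.

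Gaps between the pieces were short. The median gap was 204 and 223.5 bp in shEZH2, 185 bp in the second shE2F1 library and 229 bp in the first, with a longest gap of 872 bp in that library. Of the uncovered bp, 44.6% and 38.9% lay in such gaps in shEZH2, 43.2% and 43.5% in shE2F1, 29.5% in DMSO, 31.2% in GSK126 and 32.3% in shSUZ12. The remaining uncovered bp were at the edges.

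Across the 44 domains with a TSS, laid out 5′ to 3′ along the gene that starts there, coverage was lowest at both ends in every library. In the outermost 5% at the 3′ end it was 57.8% and 45.5% in shEZH2, 36.2% and 60.2% in shE2F1, and 75.7% and 87.8% in shCtrl. There it was 70.1% in DMSO, 52.0% in GSK126 and 62.4% in shSUZ12. In the middle, from 45% to 50% of the width, it was 91.8% and 85.0% in shEZH2, 90.8% and 96.0% in shE2F1 and 99.5% in DMSO. At these 2 positions all 4 libraries of EZH2 and E2F1 knockdown were below DMSO, and so were GSK126 and shSUZ12, at 97.8% and 97.7% in the middle. Over the 20 steps along the domain, the second shEZH2 and first shE2F1 libraries were above DMSO at 0, the first shEZH2 library at 4 and the second shE2F1 library at 8.

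**Figure D3:**
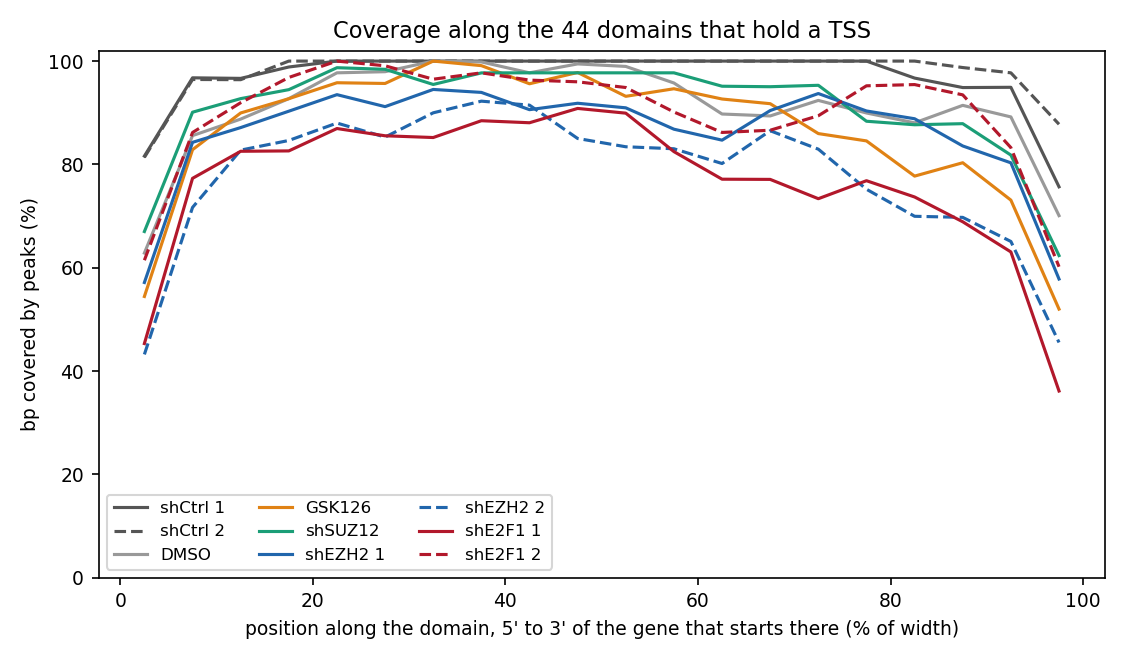
Percent of bp covered by peaks (vertical axis) in 20 equal steps along the 44 domains that hold a TSS (horizontal axis, percent of width, 5′ to 3′ of the gene); each line is 1 library and dashed lines are second replicates. All lines dip at the ends, to 36.2% at the 3′ end in the first shE2F1 library.

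Coverage with shEZH2 was lower than with shCtrl, each library against each, at 45 of the 54 domains (83.3%), where 56.1% of all regions met the same rule. More bp were covered at 1 domain, MBOAT7/TSEN34, beside 0.774% of regions. For shE2F1 the lower count was 44 (81.5%), beside 44.1% of regions, and the higher count was 0, beside 1.37%. In the 1 shSUZ12 library, 35 domains (64.8%) were below both shCtrl libraries, beside 52.2% of regions. These contrasts used the lists that chose the domains, so nothing is read from the excess over the other regions. Lower coverage was not limited to broad regions. Regions of 200 to 499 bp were covered at 86.8% and 90.2% in shCtrl, 61.1% and 45.3% in shEZH2, 51.9% and 71.5% in shE2F1 and 69.2% in DMSO. Regions of 2000 bp or more were covered at 90.7% and 92.7%, 80.1% and 68.8%, 69.4% and 83.7%, and 85.1%, in the same order.

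Domains were therefore also chosen without the shCtrl lists. Taking peaks of 2000 bp or more from the DMSO list alone gave 103 domains, which include 36 of the 54 (66.7%), or 35.0% of the 103. Over these, coverage was 91.9% and 93.1% in shCtrl, 85.7% and 74.8% in shEZH2, 74.8% and 87.4% in shE2F1, 90.9% in shSUZ12 and 86.8% in GSK126. Every knockdown library of EZH2 and E2F1 was below both shCtrl libraries. The mean was 12.2 percentage points lower in shEZH2 (80.3% ± 7.73 against 92.5% ± 0.871, SD, n = 2 each), in the exact permutation test p = 0.33, two-sided, the smallest p possible. For shE2F1 the mean was 81.1% ± 8.94 (SD, n = 2), a difference of −11.4 percentage points, with the same exact p = 0.33.

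Counted over these 103 domains, 61 (59.2%) had fewer covered bp in each shEZH2 library than in either shCtrl library, a share near the 56.1% of all regions. For shE2F1 it was 54 (52.4%), beside 44.1% of all regions. Splits were present in both shCtrl libraries at 21 of them (20.4%), in both shEZH2 libraries at 38 (36.9%) and in both shE2F1 libraries at 44 (42.7%). No test was made of these counts.

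Domains chosen from the knockdown lists themselves turned the order round. Wide in both shEZH2 lists were 11 domains, which shEZH2 covered at 99.7% and 96.2%, shCtrl at 93.0% and 95.1%, and shE2F1 at 78.0% and 93.0%. Wide in both shE2F1 lists were 12, covered at 96.4% and 98.0% by shE2F1, at 95.5% and 94.6% by shCtrl, and at 91.9% and 85.4% by shEZH2. The group that chose a set of domains had the highest coverage of it in each case.

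**Figure D4:**
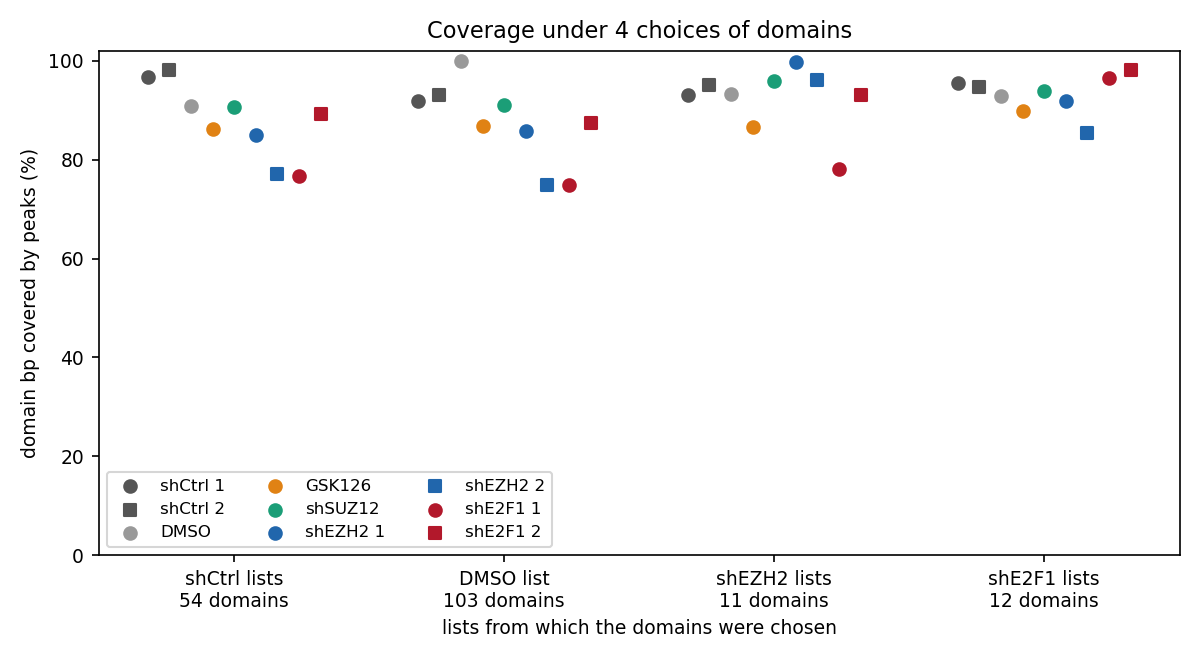
Percent of domain bp covered by peaks (vertical axis) in the 9 libraries when domains of 2000 bp or more were chosen from the shCtrl, DMSO, shEZH2 or shE2F1 lists (horizontal axis, with the number of domains). In the DMSO choice, in which neither group took part, the shCtrl points at 91.9% and 93.1% lie above the 4 EZH2 and E2F1 knockdown points, which run from 74.8% to 87.4%.

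Wide peaks were also counted in each list as a whole. Their number was 119 and 141 in shCtrl, 103 in DMSO, 118 in shSUZ12, 61 in GSK126, 63 and 22 in shEZH2, and 17 and 77 in shE2F1. All wide peaks were among the 58626 most significant peaks of their list, so shortening each list to the length of the shortest could not change these counts. Shortening leaves peak edges as they are and is no check of depth. The 3 libraries with the lowest relative depth (0.788, 0.838 and 0.816) had 22, 17 and 61. The first shEZH2 library had 63 at a depth of 1.09, and the second shE2F1 library had 77 at 1.22. The shCtrl libraries had 119 at 1.00 and 141 at 1.16, DMSO had 103 at 1.00 and shSUZ12 had 118 at 1.18. The part of depth in these counts was not tested.

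TAGLN2, which encodes the actin-binding protein transgelin 2, had the widest domain, 2830 bp at chr1:159923222-159926051. Peaks covered 2602 and 2830 bp of it in shCtrl, 2187 and 1785 in shEZH2, 1929 and 2316 in shE2F1, 2555 in DMSO, 2379 in GSK126 and 2332 in shSUZ12. It was in 2 or 3 pieces in every list but the second shCtrl list. The next widest, 2691 bp at PDZD7 and SFXN3, a mitochondrial serine transporter gene, was covered at 2419 and 2691 bp in shCtrl, 2016 and 2122 in shEZH2, 2147 and 2219 in shE2F1, 2197 in DMSO, 2177 in GSK126 and 2271 in shSUZ12. The knockdown libraries lay on both sides of DMSO.

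ACTN1, the gene of the actin cross-linker α-actinin 1, had the largest gap between shCtrl and shE2F1. Its 2624 bp (chr14:68977476-68980099) were covered at 2624 and 2457 bp in shCtrl, 1463 and 1677 in shE2F1, 2163 and 1640 in shEZH2, 2469 in DMSO, 2318 in GSK126 and 2561 in shSUZ12. The lowest shCtrl value was 780 bp above the highest shE2F1 value, and DMSO and shSUZ12 were on the shCtrl side. TMEM132A, a transmembrane protein gene, was next at 726 bp, with 2323 and 2006 bp in shCtrl, 1218 and 1280 in shE2F1, 1374 and 1914 in shEZH2, 1556 in DMSO, 1762 in GSK126 and 1569 in shSUZ12. In this case DMSO was itself far below shCtrl, and the domain was a wide peak in no list outside shCtrl.

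RGL2, which encodes an exchange factor for Ral GTPases, had 2624 and 2609 bp covered in shCtrl, 2108 and 2126 in shE2F1, 1981 and 2203 in shEZH2, 2542 in DMSO, 2157 in GSK126 and 2290 in shSUZ12. DMSO stood with shCtrl and all treated libraries were lower. The domain nearest to VCPKMT, a lysine methyltransferase gene, lay wholly in noncoding genes. It had 2094 and 2034 bp in shCtrl, 1500 and 1696 in shE2F1, 1638 and 1516 in shEZH2, 1763 in DMSO, 1715 in GSK126 and 1603 in shSUZ12. It lay in 2 or 3 pieces in all 7 lists outside shCtrl.

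ATF3, the AP-1 family member, had the largest gap between shCtrl and shEZH2, 740 bp. Coverage of its 2398 bp (chr1:212607585-212609982) was 2309 and 2093 bp in shCtrl, 1353 and 1305 in shEZH2, 1380 and 2024 in shE2F1, 1707 in DMSO, 1846 in GSK126 and 2114 in shSUZ12. The shE2F1 libraries disagreed, the second lying near shCtrl. By height the ATF3 domain was in the upper part of each list, at percentiles of 50.9 and 64.9 in shCtrl and 72.9 and 66.4 in shEZH2. COMTD1, a gene for a methyltransferase-like protein, followed with a gap of 625 bp and coverage of 2110 and 2099 bp in shCtrl, 1408 and 1474 in shEZH2, 1119 and 2053 in shE2F1, 2086 in DMSO, 1759 in GSK126 and 1595 in shSUZ12. Its shE2F1 libraries were far apart, 1 near shCtrl and 1 the lowest of all.

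HEXIM2, SOCS2 and RREB1 name domains outside coding genes that had the next largest gaps in shEZH2. At HEXIM2 coverage was 2443 and 2455 bp in shCtrl, 1920 and 1807 in shEZH2, 2061 and 2049 in shE2F1, 2389 in DMSO, 2193 in GSK126 and 2378 in shSUZ12. Both knockdowns were lower than the other libraries there. At SOCS2 it was 2021 and 2392 bp in shCtrl, 1520 and 1528 in shEZH2, 1511 and 1851 in shE2F1, 1892 in DMSO, 1594 in GSK126 and 1627 in shSUZ12, so that all 7 other lists were below shCtrl. The domain nearest to RREB1, a zinc finger factor of Ras signalling, had 2057 and 2099 bp in shCtrl, 1580 and 1508 in shEZH2, 1363 and 1842 in shE2F1, 2005 in DMSO, 1910 in GSK126 and 2085 in shSUZ12.

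Of the other domains without a coding TSS among the 30 widest, KLF9 had 2306 and 2307 bp in shCtrl, 1848 and 2155 in shEZH2, 2067 and 2083 in shE2F1, 2273 in DMSO, 2172 in GSK126 and 2253 in shSUZ12. PITX3 had 2250 and 2240 bp in shCtrl, 2069 and 1665 in shEZH2, 1796 and 1985 in shE2F1, 2224 in DMSO, 2084 in GSK126 and 2134 in shSUZ12. In both cases DMSO and shSUZ12 lay closer to shCtrl than any EZH2 or E2F1 knockdown library did.

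MBOAT7/TSEN34 was the exception among the 54. Its 2162 bp (chr19:54189230-54191391) were covered at 2123 and 2063 bp in shCtrl, 2162 and 2146 in shEZH2, 2155 and 2073 in shE2F1, 2153 in both DMSO and GSK126 and 2116 in shSUZ12. It was 1 wide peak in all 9 lists, the only domain of which this held. SETD7, a lysine methyltransferase gene, and USP9X, a deubiquitinase gene, were wide in both libraries of each knockdown but not in every other list. For SETD7, coverage was 2138 and 2181 bp in shCtrl, 2139 and 2113 in shEZH2, 2104 and 2167 in shE2F1, 2167 in shSUZ12 and 1781 in both DMSO and GSK126.

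Other wide domains lay between these cases. SEPTIN11, a cytoskeletal septin gene, had 2235 and 2391 bp in shCtrl, 1983 and 1311 in shEZH2, 1468 and 1993 in shE2F1, 1964 in DMSO, 1748 in GSK126 and 2274 in shSUZ12. ELF2, an ETS factor gene, had 2392 and 2509 bp in shCtrl, 2214 and 1958 in shEZH2, 1915 and 2080 in shE2F1, 2211 in DMSO, 1940 in GSK126 and 2228 in shSUZ12. The first shEZH2 library was close to DMSO at both genes, and the second was lower.

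ARHGEF17 had 2290 and 2497 bp in shCtrl, 2261 and 2011 in shEZH2, 2190 and 2275 in shE2F1, 2328 in DMSO, 2007 in GSK126 and 2276 in shSUZ12. VLDLR, a lipoprotein receptor gene, had 2404 and 2461 bp in shCtrl, 2461 and 1973 in shEZH2, 2393 and 2266 in shE2F1, 2409 in DMSO, 2224 in GSK126 and 2453 in shSUZ12. The shEZH2 libraries lay at opposite ends of the range at VLDLR.

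**Figure D5:**
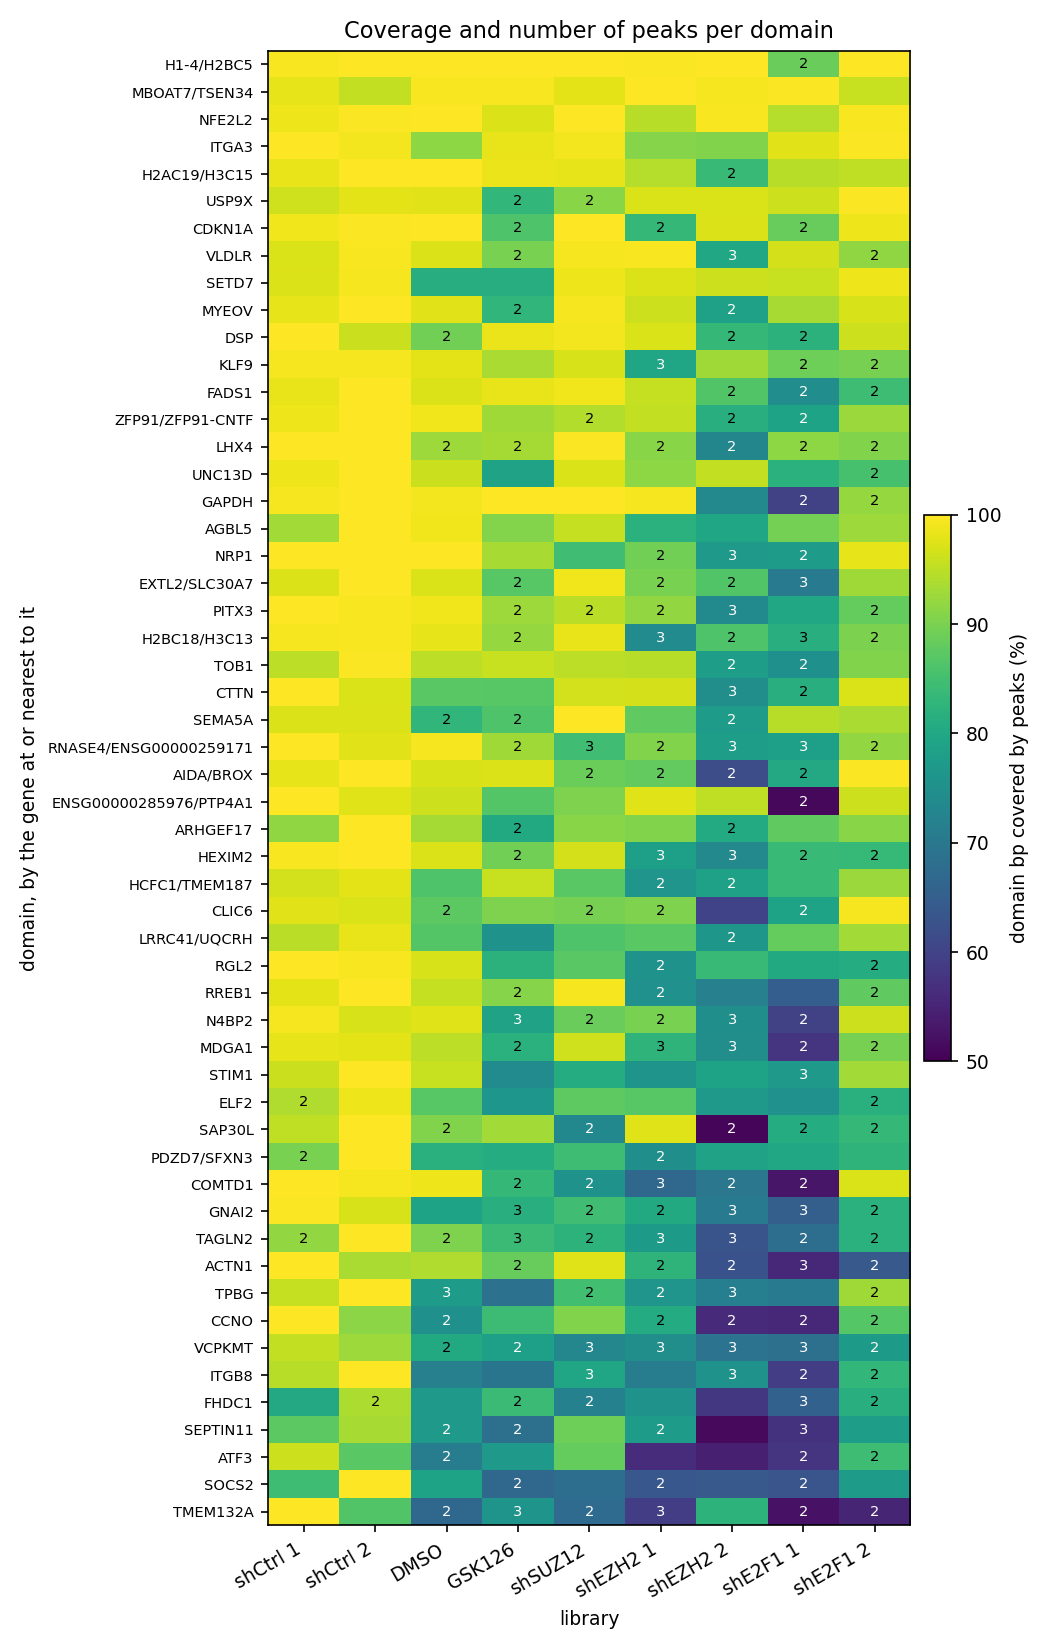
Percent of domain bp covered by peaks (colour, 50% to 100%) for each of the 54 domains (rows, ordered by their mean) in each library (columns); a digit gives the number of peaks where there were 2 or more. H1-4/H2BC5 and MBOAT7/TSEN34 stayed near full coverage in most lists, while TMEM132A, SOCS2 and ATF3 were the least covered on average.

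GSK126 was compared with DMSO, 1 library each and so without a replicate check. Covered bp were lower with GSK126 at 35 domains, higher at 16 and equal at 3, with a median difference of −117.5 bp. Shares over all regions were not counted for differences of any size, so no direction is drawn from these 3 counts. At 14 of the 54 domains (25.9%) GSK126 was lower by 10% of the width or more, beside 29.5% of all regions, and at 0 it was higher by as much, beside 16.1% of regions. Relative depth was 0.816 in GSK126 and 1.00 in DMSO, and its part in the result was not tested. Wide in DMSO and in 2 or more pieces with GSK126 were 16 domains, among them CDKN1A, ACTN1, HEXIM2, N4BP2, MDGA1 and VLDLR. The share of other regions with this change was not counted.

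STIM1, the calcium sensor of the endoplasmic reticulum, had the largest drop, from 2029 bp in DMSO to 1570 bp in GSK126, a difference of −459 bp, with 2037 and 2120 bp in shCtrl, 1608 and 1674 in shEZH2, 1628 and 1974 in shE2F1 and 1716 in shSUZ12. DMSO and shCtrl were high at STIM1 and the other lists, the second shE2F1 library apart, were at 1716 bp or less. N4BP2 went from 2280 bp in DMSO to 1842 bp in GSK126, RGL2 from 2542 to 2157, UNC13D, a gene for vesicle priming, from 1960 to 1611, and COMTD1 from 2086 to 1759. CDKN1A went from 2345 to 2022 bp.

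In the other direction CCNO, the cyclin O gene, had the largest gain, from 1886 bp in DMSO to 2117 bp in GSK126, a difference of 231 bp. Its shCtrl values were 2513 and 2295 bp, its shEZH2 values 2030 and 1409, its shE2F1 values 1396 and 2180, and its shSUZ12 value 2276. TMEM132A went from 1556 to 1762 bp, HCFC1/TMEM187, HCFC1 being a transcriptional coregulator, from 1863 to 2068, DSP, which encodes desmoplakin, from 1870 to 2063, and FHDC1, a formin gene, from 2002 to 2183. At all 5, DMSO was below both shCtrl libraries.

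Counts of domains with lower or higher percentiles depended on how the peaks were ranked. Both shEZH2 libraries were below both shCtrl libraries at 8 of the 54 domains (14.8%), beside 31.4% of regions with a peak in all 4 lists, and above them at 10 (18.5%), beside 11.7%. Both shE2F1 libraries were below at 2 domains (3.70%), beside 22.5% of regions, and above at 13 (24.1%), beside 17%. These counts depended on list length, and within the 58626 most significant peaks of each list shEZH2 was below at 0 domains and above at 25, and shE2F1 below at 6 and above at 21. Ranked by −log10 p instead, shEZH2 was below at 19 and above at 5, and shE2F1 below at 7 and above at 5. Shares over all regions were not counted for the shortened lists or for −log10 p, and no direction is drawn from any of these counts.

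Some bp of the domains were covered in both shCtrl lists and in none of the 4 EZH2 and E2F1 knockdown lists. There were 34 such stretches in 31 domains, 3004 bp in all. Of these, 14 were 100 bp or longer and 7 lay between peaks in all 4 knockdown lists. DMSO covered 58.1% of these bp, shSUZ12 49.4% and GSK126 32.3%, so that part of them was also missing without a knockdown. The stretches were picked by the values they show and no test was made. The longest outside UTRs in each of 4 domains are printed to show what peaks no longer covered, GRCh38 plus strand, 5′ to 3′, with CCAAT in capitals where present and no E2F or AP-1 letters found.
RREB1 nearest, intergenic, chr6:7052334-7052513: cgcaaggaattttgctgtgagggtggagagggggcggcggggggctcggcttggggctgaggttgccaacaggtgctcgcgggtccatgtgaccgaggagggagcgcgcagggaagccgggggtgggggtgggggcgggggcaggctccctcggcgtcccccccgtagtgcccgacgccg
VCPKMT nearest, in LINC01588 outside its canonical exons, chr14:50061397-50061557: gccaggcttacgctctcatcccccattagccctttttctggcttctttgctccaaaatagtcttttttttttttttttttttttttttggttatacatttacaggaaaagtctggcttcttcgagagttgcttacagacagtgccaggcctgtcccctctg
TAGLN2, intron, chr1:159924045-159924204: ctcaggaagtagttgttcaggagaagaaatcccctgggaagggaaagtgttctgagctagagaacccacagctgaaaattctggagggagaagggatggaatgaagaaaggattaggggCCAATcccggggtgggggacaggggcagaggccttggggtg
ATF3, upstream, chr1:212607748-212607890: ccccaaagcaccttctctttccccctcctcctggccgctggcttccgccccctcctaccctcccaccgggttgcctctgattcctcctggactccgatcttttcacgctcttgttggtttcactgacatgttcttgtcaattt
The RREB1 stretch is 180 bp with 73.9% GC, and the VCPKMT stretch is 161 bp with 41.6% GC and holds a long run of T. The TAGLN2 stretch lies between peaks in all 4 knockdown lists, its centre 1382 bp downstream of the TSS. The ATF3 stretch, centred at −941 bp from its TSS, lies in the upstream part of a domain that starts at 212607585. It was not between peaks in all 4 lists. DMSO covered the first 3 in full and none of the ATF3 stretch.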

How the data were processed

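Peak lists of ATAC-seq libraries of MDA-MB-231 cells were analysed, 1 list for each of 9 libraries. The authors aligned reads with Bowtie2, reporting up to 4 positions, shifted them for the Tn5 cut (+4 and −5 bp) and called peaks in each library without pooling replicates; the peak caller and the Bowtie2 version are not given in the sources used here. The build was GRCh38 (hg38) in the submitters' processing notes. The deposited fold enrichment is the ratio of the summit to its local background, as made by the authors' caller. Each peak also has its −log10 p and −log10 q as deposited by the authors. The lowest −log10 q was 2.00 and the shortest peak 200 bp. No column of per-sample values was left unmapped.

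The domains and gene lists were chosen with earlier results of these data known. Domain bp inside peaks, number of peaks, and the mid-rank percentile of the strongest peak were counted in each list. Background shares came from all 65657 regions, merged from shCtrl peaks, with a peak in both shCtrl lists. The rule for domains named with values took the 10 widest, the 5 largest gaps below shCtrl for each knockdown and those above it, the 5 largest drops and gains from DMSO to GSK126, domains of the genes the study followed, and those without a coding TSS among the 30 widest. MBOAT7/TSEN34 with shEZH2 was the only gap above shCtrl in the shEZH2 and shE2F1 comparisons. SETD7, CDKN1A, GAPDH, TOB1 and SAP30L were named after their values were seen. Annotation was the canonical transcripts of GENCODE v44, and sequences were read from GRCh38.

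Only the exact permutation tests over libraries were used, since read counts were not used here. Replicates were taken from the labels, and if they were not separate cultures, p-values measure only technical spread. Relative depth was recovered from the tags at summits that fold enrichment and −log10 p fix, for at least 99.9% of peaks of each list. Wilson intervals cover counting error only, and peaks carry no molecule counts. On simulated data with 200 planted domains, the covered bp of all 200 were recovered. Their states were scored as right as well. A planted narrowing that left 2000 bp or more was scored as right when called wide, so the state can miss such a loss. Alternatives were widths of 1500 and 3000 bp, a −log10 q of at least 5, lists of equal length, joining of peaks up to 150 bp apart, 50% reciprocal overlap, domains chosen from other lists, and leaving out each replicate. The versions were pandas 2.3.3, numpy 2.4.6, pysam 0.24.0, scipy 1.17.1, matplotlib 3.10.9 and statsmodels 0.14.6, under Python 3.11.15.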

Additional observations from a re-analysis of the deposited data

How the results depend on the processing

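The number of domains, 54, did not move with a −log10 q of at least 5, lists of equal length or 50% reciprocal overlap, and joining near peaks gave 67. Lists of equal length kept every wide peak, so the number could not move there. A minimum of 3000 bp left none, since the widest peak was 2996 bp. At 1500 bp there were 911 domains, of which 644 had fewer bp covered with shEZH2 and 580 with shE2F1, and 114 and 112 were split in both libraries. Choosing from the DMSO list gave 103 domains, 38 split with shEZH2 and 44 with shE2F1, and a GSK126 minus DMSO difference of −13.2 percentage points instead of −4.55, DMSO now being the list that chose. Choosing from the shEZH2 lists gave 11 domains, with 0 lower and 0 split with shEZH2, 3 lower and 2 split with shE2F1, a shEZH2 minus shE2F1 difference of 12.4 points and a shSUZ12 minus shCtrl difference of 1.85 points. Choosing from the shE2F1 lists gave 12 domains, with 8 lower and 1 split with shEZH2 and 0 lower and 0 split with shE2F1. With lists of equal length, 10 domains were split with shE2F1 instead of 18. Shortening removes the less significant peaks of a list and leaves edges as they are. The other splits therefore rested on such a peak in at least 1 library.

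Leaving out a shCtrl library gave 119 domains (without the second) or 141 (without the first), since 1 list then chose without the overlap rule. The number stayed at 54 when a shEZH2 or shE2F1 library was left out. Over all libraries left out 1 at a time, lower domains ran from 46 to 135 for shEZH2 and from 44 to 131 for shE2F1. Split domains ran from 27 to 49 and from 25 to 53. The upper ends come from the larger sets chosen by 1 shCtrl list. Splits in shEZH2 numbered 31 without its first library, and those in shE2F1 to 34 without its second. The shEZH2 minus shE2F1 difference ran from −8.07 points without the first shE2F1 library to 4.44 points without the second, and was 2.16 points without the second shEZH2 library, so its sign rested on single libraries. With the replicate number as a replicate block it was −1.81 points, in the exact sign-flip test p = 1.00. With 2 pairs this test cannot give a small p. Same-numbered libraries did not deviate together (correlation across domains −0.167 between shEZH2 and shE2F1, −0.107 and −0.123 of each with shCtrl). The crossed pairing has the same mean difference, −1.81 points.

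The tests of domains chosen from DMSO, the shortened lists for percentiles and the crossed pairing were added after seeing the data. Peak edges depend on depth and on the caller's merging rule, and list lengths and depths differ between replicates of a group. With 2 libraries a group no exact test can go below p = 0.33, and DMSO, GSK126 and shSUZ12 have no replicate.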
